A study of Mus musculus with 6 samples.

Results

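The genes described here are 38 mouse genes of DNA replication and S phase, chosen by symbol as genes of origin licensing, the helicase, polymerases, the clamp, chromatin copying and nucleotide synthesis, out of 55487 gene IDs counted. All 38 were found, all are annotated as protein-coding, and all 38 passed the filter on low counts. Each value comes from RNA sequencing of 6 tongue grafts of B16F10, a mouse melanoma line labelled wild type, grown in C57BL/6J mice and cleared of surrounding tissue before extraction. In the 3 inhibition grafts, nociceptive nerves that reach the lymph nodes were labelled as inhibited. The study's design describes injection of AAV2/retro-Trpv1-hM4D(Gi)-mCherry, a vector for a receptor that silences neurons, or of AAV2/retro-Trpv1-mCherry into the cervical nodes, tumour cells placed under the tongue mucosa 6 weeks later, and the ligand deschloroclozapine 2 times per day for 12 days. The 3 control grafts are labelled vehicle-treated, so whether they had the ligand with the mCherry vector or a vehicle cannot be told from these sources. What both groups share is the melanoma line, the host strain and the graft site. The vectors were put into the nodes and named for Trpv1, a nociceptor gene, so the vector was not given to the tumour cells, and the age and number of animals behind the samples are not given in the sources used here.

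Replication starts when the helicase made of the MCM proteins is loaded onto origins in G1 by Cdc6 and Cdt1, and is then switched on in S phase by Cdc45 and the GINS complex. Primase and DNA polymerases copy the strands behind it, held by the sliding clamp Pcna, while ribonucleotide reductase and thymidylate enzymes supply the building blocks. Most of these genes are transcribed at the passage from G1 to S phase under E2F transcription factors, and their RNA is used as a measure of how many cells of a tissue are cycling. In bulk samples, fewer cycling cells and less RNA per cell cannot be told apart.

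Promoter sequences of RefSeq (GRCm38.p6) were found for 32 of the 38 genes; Mcm4, Gins1, Gins2, Pole, Rfc2 and Ccne2 had no entry. The 250 bases before each start were searched on both strands for the E2F words TTTCCCGC, TTTCGCGC, TTTGCCGC and TTTGGCGC. Of the 32 genes, 8 held at least 1 word (25%), against 2.16% of 27025 genes with a promoter and 1 of 17 genes of G2 and mitosis. The word CCAAT, bound by the factor NF-Y, was in 18 of the 32 (56.2%), against 37.5% of all promoters and 15 of the 17 mitosis genes. A match is a description of letters and not of a bound site. Exons were looked up for 7 of the 8 genes, all but Uhrf1, and the 4 stretches that no annotated exon touches are printed to show what the words look like in their setting. E2F words on either strand are in capitals, and each stretch reads 5′ to 3′ on the strand of its gene.

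Mcm5, chr8:75109336-75109387, plus strand: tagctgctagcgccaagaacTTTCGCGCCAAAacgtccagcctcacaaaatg

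Mcm6, chr1:128359725-128359835, minus strand: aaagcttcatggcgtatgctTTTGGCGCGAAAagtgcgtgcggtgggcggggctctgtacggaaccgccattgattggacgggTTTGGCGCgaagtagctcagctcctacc

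Cdc6, chr11:98907993-98908040, plus strand: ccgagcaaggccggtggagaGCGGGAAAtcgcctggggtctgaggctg

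Pola1, chrX:93632266-93632313, minus strand: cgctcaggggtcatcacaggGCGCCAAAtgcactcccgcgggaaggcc

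In Mcm5 and in the distal site of Mcm6 the words TTTCGCGC and TTTGGCGC overlap on opposite strands, so that 12 capitals hold 2 words. Mcm6 carries another TTTGGCGC closer to its start. Cdc6 holds TTTCCCGC and Pola1 holds TTTGGCGC, both on the opposite strand. The Cdc6 stretch lies before the RefSeq start used, but inside the annotated span of the gene, which begins at base 98907801.

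The RNA level of these genes was nearly the same in inhibition and control grafts. None rose or fell past the test: edgeR called 0 of the 38 at an adjusted p under 0.05, where it called 0.0383% of 15666 genes tested (0.0319% higher and 0.00638% lower). DESeq2 called 0 of the 38, where it called 3.67% of all genes (2.37% higher and 1.30% lower). With limma-voom, 0 of all genes tested were called, so its 0 of the 38 says nothing about these genes. Before adjustment, an edgeR p under 0.05 was reached on the higher side by Mcm2, Pold1 and Uhrf1 (3 of 38, where 8.36% of all genes did). On the lower side Rfc4 and Rpa2 reached it (2 of 38, where 7.0% did). Among genes with a mean of at least 10 CPM, 5.81% reached it on the higher side and 9.72% on the lower. In DESeq2, 2 of the 38 were higher at an unadjusted p under 0.05 (8.07% of all genes) and 2 lower (6.51%). The median log2 fold change (inhibition over control) over the 38 was 0.10, with quartiles of 0.00 and 0.14, beside a median of 0.00 over all genes. There were 27 genes with a positive fold change (71.1%), against 51.0% of all genes and 44.3% of those with a mean of at least 10 CPM; with upper-quartile scaling there were 31.

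The limits on what could have been missed are narrow. For 36 of the 38 genes the 95% confidence interval of the log2 fold change lay between -0.5 and 0.5, which was true of 50.7% of all genes tested. The 2 exceptions were Fen1, counted at a very low level, and Rfc4, whose interval ran from -0.56 to -0.05. Among the 9809 genes with a mean of at least 10 CPM (counts per 1000000, scaled with TMM factors), a level that 37 of the 38 reached, 78.5% had such an interval. The spread between grafts of a group was small too, with a median coefficient of variation of 7.96% over the 38 genes and 11.7% over all genes; it was 8.19% over the genes of at least 10 CPM, so the 38 were near the background at their level. The groups did not overlap in 4 genes on the higher side (Pola2, Pold1, Uhrf1 and Slbp), where 10.2% of all genes did so, and in 2 on the lower side (Rfc4 and Rpa2), where 11.0% did. The first count is near its background and the second below it.

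**Figure D1:**
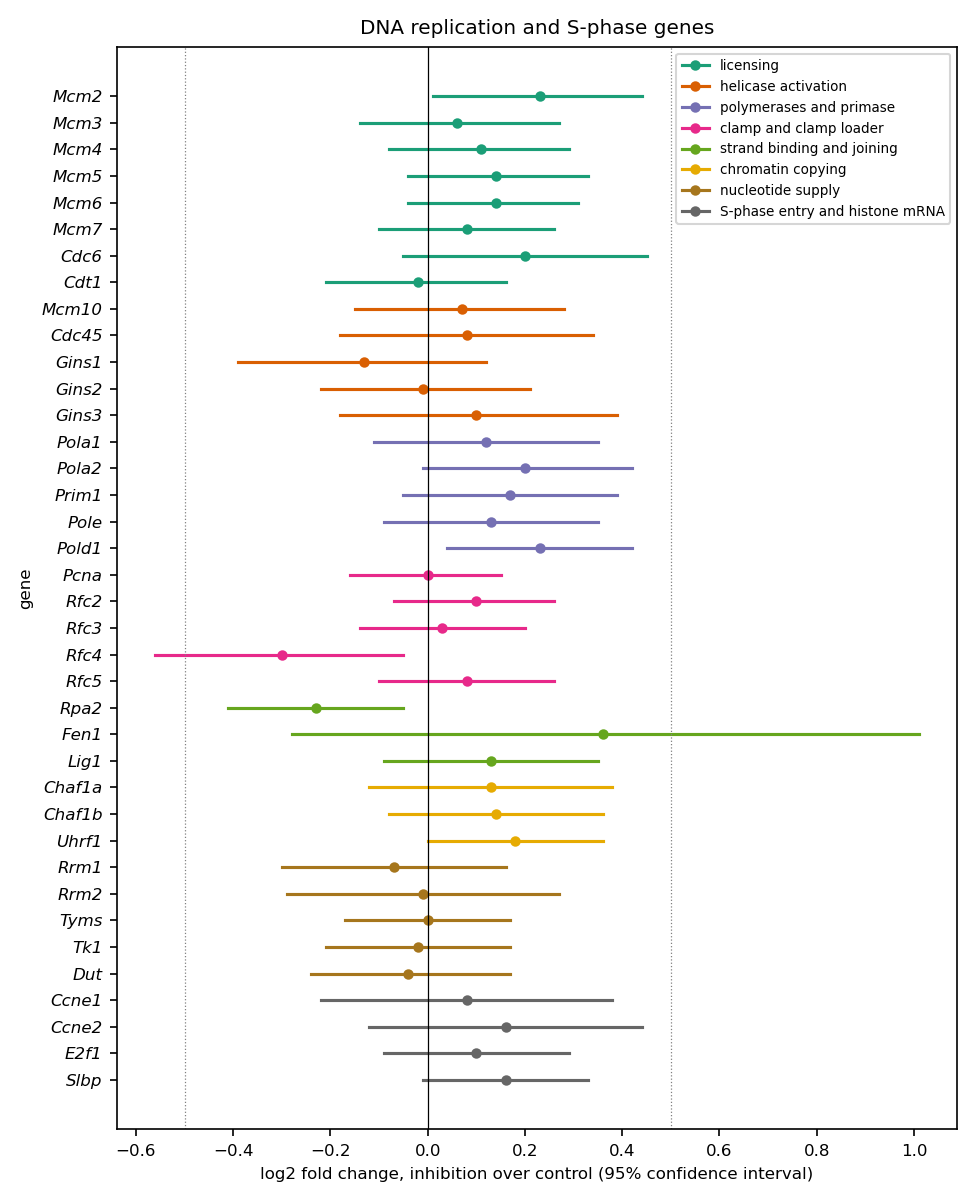
Log2 fold change of inhibition over control (x axis) for each of the 38 genes (y axis), with the 95% confidence interval of the edgeR fit as a bar and colours for the role groups. Most bars cross 0 and 36 of 38 stay between the dotted lines at -0.5 and 0.5; Fen1 has the widest bar.

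The libraries behind these values held between 14477277 and 20972494 counts, and the totals per gene over the 6 libraries ran from 291 for Fen1 to 53461. The melanoma genes Pmel, Tyrp1 and Dct were at 2875 CPM or more in every graft, so the labelled tumour was present in all. Control 1 stood apart, with the lowest sum of 7 melanoma genes (15570 CPM, against 22164 to 26818 in the other 5). It was the lowest graft for Pmel, Tyrp1, Dct and Mitf, but not for Mlana, Tyr or Sox10. Skeletal muscle genes, which mark tongue tissue in the graft, summed to 695 to 1624 CPM in controls and 1952 to 3529 CPM under inhibition over 10 genes, all with a positive fold change. The 8 fibroblast genes summed to 987 to 1461 CPM and 1687 to 2241 CPM. The 8 squamous genes overlapped between groups, at 1198 to 2695 CPM and 1507 to 4697 CPM. The 6 endothelial genes summed to 127 to 202 CPM and 224 to 266 CPM. Over 7 of 8 leukocyte genes the sums were 65.7 to 118 CPM and 120 to 133 CPM, and the T cell gene Cd3e, with 6 counts in all, was too low to test. DESeq2 called higher 4 of the 10 muscle, 6 of the 8 fibroblast, 2 of the 6 endothelial and 1 of the 7 leukocyte genes. It called 0 squamous and 0 melanoma genes higher, where it called 2.37% of all genes, and edgeR called 0 in each of these lists. The part of this tissue content in the replication values was not tested. A fit that also took in the muscle level gave a median of 0.10 over the 38 genes with 33 positive, and single genes moved both ways, such as Cdc6 from 0.20 to 0.02 and Ccne1 from 0.08 to 0.31.

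Together the 38 genes took up between 0.432% and 0.514% of all counts. Their summed level was 4519, 4322 and 4921 CPM in controls 1, 2 and 3 and 5143, 4579 and 4841 CPM in inhibition 1, 2 and 3. Inhibition 1 was thus the highest graft and control 2 the lowest, and control 3 lay above inhibition 2 and 3. The genes shared this order of grafts more than genes at large: inhibition 1 was the highest graft in 20 of the 38 (52.6%, against 17.8% of all genes tested), and control 1 was the lowest in 17 (44.7%, against 27.0%) and control 2 in 14 (36.8%, against 10.7%). Inhibition 1 was also the highest graft in 41.4% of E2F and RB regulators and in 35.0% of genes of G2 and mitosis. Not every related list shared this. Inhibition 1 was highest in 8 of 40 further genes of the fork and of origins, near the share over all genes. It was highest in 0 of 11 checkpoint genes and in 0 of the 9 histone genes tested. All 7 melanoma genes were highest in inhibition 1, and 4 of the 7 were lowest in control 1. Whether the melanoma content of the grafts sets this order was not tested. Without inhibition 1 the median log2 fold change of the 38 was 0.06, without control 1 it was 0.05, and without control 3 it was 0.14.

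**Figure D2:**
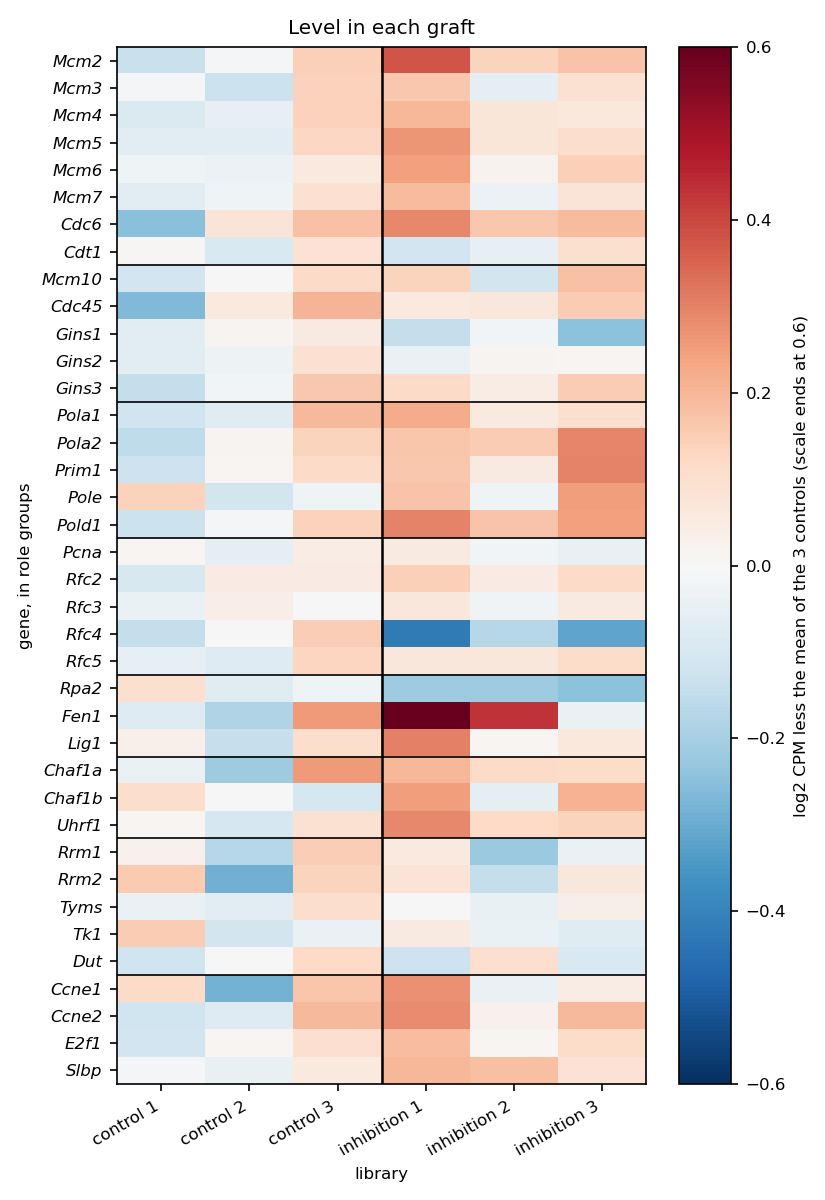
Level of each of the 38 genes (rows, in role groups) in each of the 6 grafts (columns), as log2 CPM less the mean of the 3 controls, from blue (lower) to red (higher). Inhibition 1 is the reddest column, being the highest graft in 20 of 38 genes, while Rfc4 and Rpa2 are blue in all 3 inhibition grafts.

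Gene spans are given on GRCm38 (mm10). The licensing genes leaned in 1 direction, with 7 of 8 above 0 and a median (log2) of 0.12, yet none passed the test. Mcm2 (ENSMUSG00000002870, chr6:88883474-88898780), a subunit of the helicase ring, stood at 417, 455 and 506 CPM in controls 1 to 3 and at 594, 502 and 516 CPM in inhibition 1 to 3. Inhibition 1 and inhibition 3 lay above all 3 controls, inhibition 3 by a small margin, and control 3 was above inhibition 2. The log2 fold change of Mcm2 was 0.23 ± 0.10 (standard error; interval 0.01 to 0.44; edgeR adjusted p = 0.305). Mcm6, another subunit, was at 270, 269 and 287 CPM against 326, 279 and 304 CPM, where control 3 exceeded inhibition 2. Its log2 fold change was 0.14 ± 0.08 (edgeR adjusted p = 0.418). Cdc6, the ATPase that recruits the ring to origins, was at 36.3, 45.6 and 48.9 CPM against 52.8, 48.4 and 49.3 CPM. Control 1 was low and the other 5 grafts lay close together, giving a log2 fold change of 0.20 ± 0.11 (edgeR adjusted p = 0.420). Mcm3, Mcm4, Mcm5 and Mcm7 had log2 fold changes of 0.06, 0.11, 0.14 and 0.08. Cdt1, the partner of Cdc6 in loading, was the 1 negative gene of the group at -0.02.

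Per length, the subunits of the helicase ring fell into a higher and a lower set in every graft, while the order within the higher set changed. In TPM (transcripts per 1000000, from counts and exon length), controls had 218 ± 19.0 for Mcm2, 228 ± 21.3 for Mcm3, 195 ± 13.8 for Mcm5 and 195 ± 6.49 for Mcm6 (SD, n = 3). Mcm3 and Mcm2 did not differ beyond their spread, nor did Mcm5 and Mcm6. Mcm7 (142 ± 7.21) and Mcm4 (118 ± 9.07) were below these, although the ring holds each protein in equal number. Exon length here is every base in any annotated exon of a gene, which can exceed the length of its RNA. It was 6956 bases for Mcm2 and 3589 for Mcm4, so whether RNA of the 6 subunits was at 1 level cannot be told. Mcm4 was between 0.619 and 0.657 of the mean of the 6 subunits in all grafts, and Mcm5 between 1.06 and 1.09. Mcm2 varied more, from 1.13 to 1.31 of the mean.

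**Figure D3:**
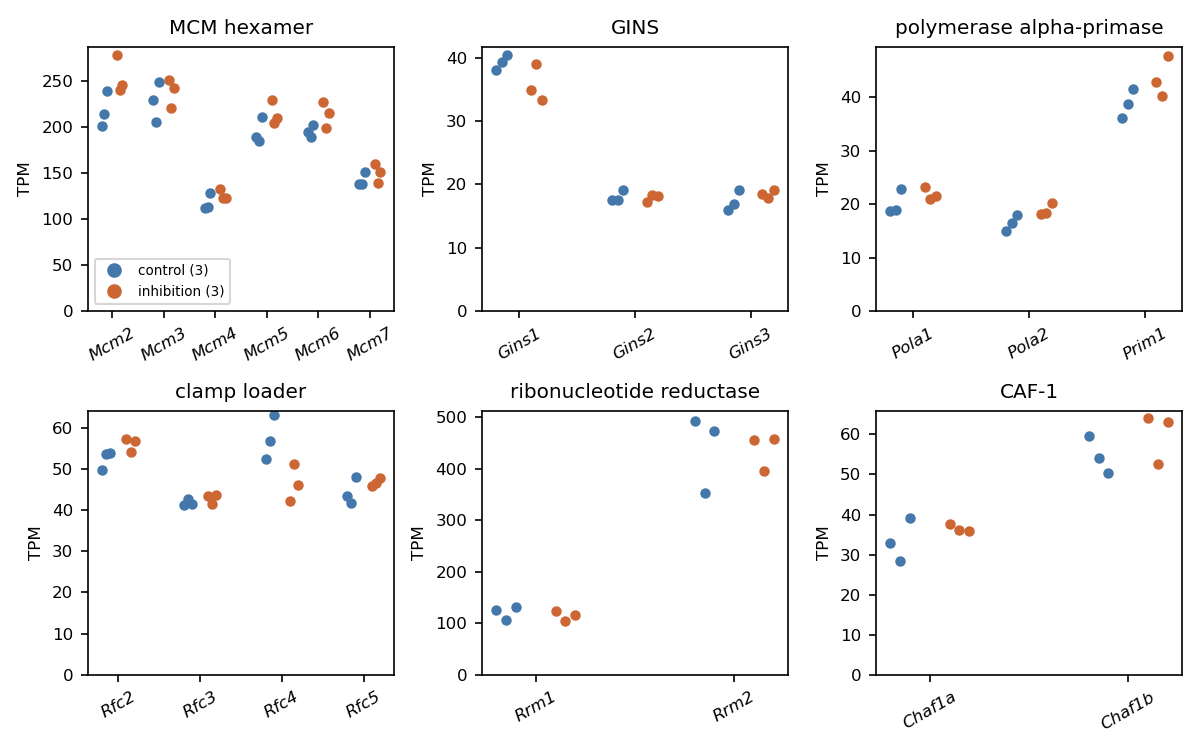
TPM (y axis, from 0) of the subunits (x axis) of 6 replication complexes, 1 point per graft, blue for the 3 controls and orange for the 3 inhibition grafts. On this scale the groups do not overlap for Mcm2 (239 against 240 at the nearest points), Pola2, Rfc2 and Rfc4, and overlap for the other subunits. In CPM with TMM factors the groups overlap for Mcm2 and Rfc2 too. The share of all genes apart in TPM is not given here. Mcm4 and Mcm7 are the lowest MCM subunits in every graft, and Rrm2 lies above Rrm1 in every graft. The gap between Rrm2 and Rrm1 rests on the exon lengths used.

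Genes that activate the helicase differed little, with 3 of 5 above 0 and a median (log2) of 0.07. Gins1, a subunit of the GINS complex, was at 17.2, 18.2 and 18.7 CPM in controls and at 16.3, 17.8 and 15.2 CPM under inhibition. The groups overlapped through inhibition 2, and the log2 fold change was -0.13 ± 0.11 (edgeR adjusted p = 0.594). Gins3, of the same complex, was at 12.8, 14.0 and 15.8 CPM against 15.3, 14.6 and 15.7 CPM. Here control 3 was the highest graft (log2 fold change 0.10 ± 0.13, edgeR adjusted p = 0.730). Cdc45, which completes the active helicase, was at 42.6, 53.4 and 59.0 CPM against 53.4, 53.7 and 56.9 CPM. Control 1 was low and control 3 high, so that the groups fully overlapped (log2 fold change 0.08 ± 0.12, edgeR adjusted p = 0.762). Without control 1 the value for Cdc45 turned to -0.05. Mcm10, a helicase activator, and Gins2 had log2 fold changes of 0.07 and -0.01. In TPM, Gins1 (39.3 ± 1.17 in controls) exceeded Gins2 (18.0 ± 0.906) and Gins3 (17.3 ± 1.66), and the last 2 did not differ beyond their spread (SD, n = 3). The exon lengths used were 1516, 4097 and 2709 bases, against 1849, 2405 and 1587 counts in all, so this order rests largely on the lengths. Gins2 shares 67.3% of its exon bases with Gse1 on the opposite strand, so its level is uncertain.

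All 5 polymerase and primase genes had a positive fold change (median 0.17 on the log2 scale), and again none passed. Pold1 (ENSMUSG00000038644, chr7:44532746-44548849), the catalytic subunit of polymerase delta, was at 66.4, 71.9 and 79.8 CPM in controls and at 89.1, 81.5 and 85.9 CPM under inhibition. The groups did not overlap, by a small margin between control 3 and inhibition 2. Pold1 had a log2 fold change of 0.23 ± 0.08, a fold of 1.17 (interval 1.03 to 1.34; edgeR adjusted p = 0.253). Pola2, a subunit of polymerase alpha, was at 37.1, 41.6 and 45.2 CPM against 46.2, 45.8 and 50.5 CPM. These groups were also apart, with control 3 close to inhibition 2 (log2 fold change 0.20 ± 0.10, edgeR adjusted p = 0.346). Prim1, the catalytic primase subunit, was at 41.6, 45.6 and 49.0 CPM against 50.7, 47.0 and 55.7 CPM. Control 3 exceeded inhibition 2 here (log2 fold change 0.17 ± 0.10, edgeR adjusted p = 0.421). Pola1 and Pole, the catalytic subunits of polymerases alpha and epsilon, had log2 fold changes of 0.12 and 0.13. In TPM, controls had 38.8 ± 2.75 for Prim1, 20.2 ± 2.31 for Pola1 and 16.4 ± 1.43 for Pola2 (SD, n = 3). The exon lengths used were 3868, 8813 and 8294 bases, against 5212, 6043 and 4798 counts in all. The gap between Prim1 and its partners thus rests largely on the lengths.

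The clamp Pcna, which tethers polymerases to DNA, had the same mean level in both groups within its error. It stood at 351, 334 and 359 CPM in controls and at 361, 344 and 337 CPM under inhibition, 348 ± 12.7 against 347 ± 12.7 CPM (SD, n = 3). Its log2 fold change was 0.00 ± 0.07, with an interval from -0.16 to 0.15 (edgeR adjusted p = 0.993). Per length, Pcna and Rrm2 were the 2 most abundant of the 38, at 477 ± 13.4 and 436 ± 35.6 TPM under inhibition (SD, n = 3), and in controls they did not differ beyond their spread. This rank depends on the exon lengths used. In CPM, the means over all grafts were 498 for Mcm2 and 393 for Rrm1, above Rrm2 (367) and Pcna (347). The clamp loader genes split. Rfc4 (ENSMUSG00000022881, chr16:23113943-23127737) was at 24.0, 26.5 and 29.4 CPM in controls and at 19.8, 23.6 and 21.3 CPM under inhibition. Every inhibition graft was below every control, though inhibition 2 was close to control 1. The log2 fold change of Rfc4 was -0.30 ± 0.11, the lowest of the 38 (edgeR adjusted p = 0.266). Rfc4 shares 12.7% of its exon bases with Eif4a2 on the opposite strand, a gene with 19160 counts to its 2603, so its value is uncertain.

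The other loader subunits did not share that direction. Rfc2 was at 93.4, 103 and 103 CPM in controls and at 110, 103 and 108 CPM under inhibition (log2 fold change 0.10 ± 0.07, edgeR adjusted p = 0.534). Rfc5 was at 60.3, 59.2 and 68.2 CPM against 65.4, 65.4 and 67.4 CPM (log2 fold change 0.08 ± 0.08, edgeR adjusted p = 0.662). Rfc2 shares 15.1% of its exon bases with Lat2, and Rfc5 10.7% with Wsb2 (29382 counts to its 6942), both on the opposite strand, so these values carry the same limit as that of Rfc4. Both genes overlapped between the groups, and Rfc3 had a log2 fold change of 0.03. The count of Rfc4 per count of Rfc2 was 0.257, 0.257 and 0.285 in controls and 0.179, 0.230 and 0.198 under inhibition, so within these libraries the 2 subunits changed unequally. Whether that ratio differs between the groups was not tested.

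Of the genes that bind and join strands, Rpa2 (ENSMUSG00000028884, chr4:132768332-132778752), a subunit of the protein that coats single-stranded DNA, was the only one below the controls. It was at 50.8, 45.2 and 46.6 CPM in controls and at 41.0, 40.9 and 40.0 CPM under inhibition, where the 3 grafts were almost identical. The groups did not overlap, and the log2 fold change was -0.23 ± 0.08 (interval -0.41 to -0.05; edgeR adjusted p = 0.246). This was the smallest adjusted p of the 38, still far from the threshold. Lig1, the ligase that seals Okazaki fragments, was at 136, 121 and 143 CPM against 164, 134 and 139 CPM. Only inhibition 1 lay above the controls (log2 fold change 0.13 ± 0.10, edgeR adjusted p = 0.553). Fen1, the nuclease that trims those fragments, was at 2.23, 2.08 and 2.81 CPM against 3.78, 3.18 and 2.29 CPM. Its fold change was the highest of the 38 and its error the widest, at 0.36 ± 0.29 on the log2 scale (edgeR adjusted p = 0.559). Fen1 rested on 291 counts in all, 32 to 62 per library, where Lig1 had 14942. Of its exon bases, 78.8% are shared with the antisense gene Gm10143 and 5.37% with Tmem258, and how such reads were assigned is not given in the sources used here. The level of Fen1 is therefore uncertain.

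The 3 genes that rebuild chromatin behind the fork all had fold changes above 0 (median 0.14 on the log2 scale). Uhrf1 (ENSMUSG00000001228, chr17:56303321-56323486), which guides maintenance DNA methylation on new strands, was at 291, 269 and 307 CPM in controls and at 352, 313 and 317 CPM under inhibition. The groups were apart, control 3 lying just below inhibition 2. The log2 fold change of Uhrf1 was 0.18 ± 0.08, with an interval from 0.00 to 0.36 (edgeR adjusted p = 0.322). Chaf1b, a subunit of the CAF-1 histone chaperone, was at 83.0, 77.3 and 71.7 CPM against 91.9, 74.1 and 89.1 CPM, with inhibition 2 among the controls (log2 fold change 0.14 ± 0.10, edgeR adjusted p = 0.517). Chaf1a, the large subunit, was at 86.6, 76.6 and 106 CPM against 102, 96.4 and 96.1 CPM. Control 3 was the highest graft for this gene (log2 fold change 0.13 ± 0.11, edgeR adjusted p = 0.584). Chaf1a shares 52.5% of its exon bases with Ubxn6 on the opposite strand.

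The genes of nucleotide supply were the flattest group: 0 of 5 were positive and all 5 lay between -0.07 and 0.00, with a median of -0.02. Rrm1, the large subunit of ribonucleotide reductase, was at 408, 356 and 444 CPM in controls and at 417, 344 and 390 CPM under inhibition. Rrm2, its S-phase subunit, was at 406, 298 and 400 CPM against 386, 330 and 382 CPM. Control 2 and inhibition 2 were the low grafts of both, so the grafts of a group differed more than the group means did. The log2 fold changes were -0.07 ± 0.10 for Rrm1 (edgeR adjusted p = 0.766) and -0.01 ± 0.12 for Rrm2 (edgeR adjusted p = 0.979). Rrm2 turned to 0.34 with the muscle level in the fit. Tk1, thymidine kinase, was at 138, 115 and 121 CPM against 129, 121 and 118 CPM. Dut, which removes dUTP, was at 67.8, 73.7 and 80.1 CPM against 67.7, 79.0 and 69.1 CPM. Both overlapped fully, with log2 fold changes of -0.02 ± 0.09 for Tk1 (edgeR adjusted p = 0.917) and -0.04 ± 0.09 for Dut (edgeR adjusted p = 0.863). Tyms, thymidylate synthase, was at 0.00. Rrm2 RNA exceeded Rrm1 per length in every graft, with control TPM of 440 ± 75.5 and 121 ± 13.4 (SD, n = 3). The exon lengths used were 2771 bases for Rrm2 and 11012 for Rrm1, against 39539 and 42250 counts in all. This gap thus rests on the lengths, and which RNA was more abundant cannot be told.

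The genes of S-phase entry were all positive, at 0.08 to 0.16 on the log2 scale. Slbp, which binds the stem-loop of histone mRNA, was at 49.9, 48.9 and 52.4 CPM in controls and at 57.9, 57.1 and 53.5 CPM under inhibition. The groups were apart, inhibition 3 being close to control 3 (log2 fold change 0.16 ± 0.08, edgeR adjusted p = 0.355). Ccne2, a cyclin E that drives entry into S phase, was at 17.1, 17.6 and 21.2 CPM against 22.6, 18.9 and 21.2 CPM. Its groups overlapped (log2 fold change 0.16 ± 0.13, edgeR adjusted p = 0.547). Ccne2 shares 17.4% of its exon bases with Ints8 on the opposite strand, so its value is uncertain. Ccne1, the other cyclin E, was at 50.0, 37.9 and 51.7 CPM against 55.7, 44.8 and 47.6 CPM, again with the number 2 graft lowest in each group (log2 fold change 0.08 ± 0.13, edgeR adjusted p = 0.789). E2f1, an activator of S-phase genes, was at 58.2, 63.4 and 67.6 CPM against 71.5, 63.5 and 67.9 CPM. Control 2 and inhibition 2 were nearly equal (log2 fold change 0.10 ± 0.08, edgeR adjusted p = 0.590).

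Further genes of the fork and of origins were as level. Of the 40 genes 25 had a positive fold change, the median was 0.03 on the log2 scale, and edgeR and DESeq2 called 0. By unadjusted p under 0.05 both tools had 2 of the 40 higher and 1 lower. Of all genes, 8.36% were higher and 7.0% lower in edgeR, and 8.07% and 6.51% in DESeq2. The 2 higher genes were partners of Pold1 in polymerase delta. Pold2 was at 65.9, 66.9 and 68.6 CPM in controls and at 79.5, 73.7 and 77.7 CPM under inhibition. Pold3 was at 47.4, 57.6 and 60.9 CPM against 67.5, 64.0 and 68.2 CPM. Neither gene overlapped between the groups, and their log2 fold changes were 0.20 ± 0.07 and 0.27 ± 0.10 (edgeR adjusted p = 0.244 and 0.261). Of the 40 genes, 4 were apart on the higher side and 2 on the lower, where 10.2% and 11.0% of all genes were. Orc2, of the origin recognition complex, had a log2 fold change of -0.21 ± 0.09 (edgeR adjusted p = 0.304).

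E2F and RB regulators are the factors upstream of S-phase genes, and 19 of 29 were positive and a median of 0.11. Again edgeR and DESeq2 called 0, with unadjusted p under 0.05 for 2 higher and 2 lower genes in edgeR, and for 3 and 3 in DESeq2. Over all genes the shares were 8.36% higher and 7.0% lower in edgeR, and 8.07% and 6.51% in DESeq2. Ccnd2, a D-type cyclin, was at 618, 584 and 590 CPM in controls and at 487, 479 and 542 CPM under inhibition. E2f4, an E2F that can repress its targets, was at 48.8, 61.4 and 54.9 CPM against 76.0, 60.9 and 75.2 CPM. E2f8, an atypical repressor E2F made in S phase, was at 28.1, 23.9 and 34.8 CPM against 43.7, 35.5 and 38.2 CPM. Of the 29 genes, 5 were apart on the higher side and 2 on the lower, where 10.2% and 11.0% of all genes were. For Ccnd2 and E2f8 the groups were apart, while for E2f4 inhibition 2 was below control 2. The log2 fold changes were -0.25 ± 0.07, 0.36 ± 0.11 and 0.43 ± 0.14 (edgeR adjusted p = 0.204, 0.220 and 0.227). The remaining gene of these in edgeR was Cdkn1a, the cyclin-dependent kinase inhibitor p21, named after its values were seen. It was at 392, 186 and 242 CPM against 118, 134 and 196 CPM, with control 2 below inhibition 3 (log2 fold change -0.87 ± 0.34, edgeR adjusted p = 0.320). Cdk2, the partner of cyclin E, had a log2 fold change of 0.38 ± 0.20 (edgeR adjusted p = 0.421). Cdk2 shares 34 exon bases with the melanosome gene Pmel on the opposite strand, and its count was 0.120 to 0.143 of the Pmel count in the 6 libraries, so its level is uncertain.

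Checkpoint genes, which slow replication when forks stall, had 4 of 11 above 0 and a median (log2) of -0.06. edgeR and DESeq2 called 0. By unadjusted p under 0.05, edgeR had 8.36% of all genes higher and 7.0% lower, and DESeq2 had 8.07% and 6.51%. Of the 11 genes, 0 were higher and 1 was lower in both. In edgeR that gene was Atr, the kinase at stalled forks, at 39.8, 41.9 and 37.9 CPM in controls and at 30.1, 33.8 and 34.9 CPM under inhibition. The groups were apart (log2 fold change -0.27 ± 0.09, edgeR adjusted p = 0.227). Of the 11 genes, 1 was apart on the higher side and 2 on the lower, where 10.2% and 11.0% of all genes were. Rad9a and Rad1, of the checkpoint clamp, had log2 fold changes of 0.17 and -0.15 (edgeR adjusted p = 0.464 and 0.599).

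Genes of G2 and mitosis, the next phases of the cycle, were also nearly level, with 14 of 20 above 0 and a median of 0.03 on the log2 scale. They too had 0 calls in edgeR and DESeq2, with unadjusted p under 0.05 for 2 higher and 0 lower genes in edgeR, and for 1 and 0 in DESeq2. Over all genes the shares were 8.36% and 7.0% in edgeR, and 8.07% and 6.51% in DESeq2. Ube2c, Plk1 and Aurka, which act in mitosis, had log2 fold changes of 0.25 ± 0.11, 0.24 ± 0.11 and 0.20 ± 0.10 (edgeR adjusted p = 0.305, 0.325 and 0.359). All 20 genes together summed to 2798, 2653 and 2914 CPM in controls and 3027, 2675 and 2965 CPM under inhibition, with the number 2 graft the lowest of each group. For the 38 replication genes, too, the number 2 graft was the lowest of each group.

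**Figure D4:**
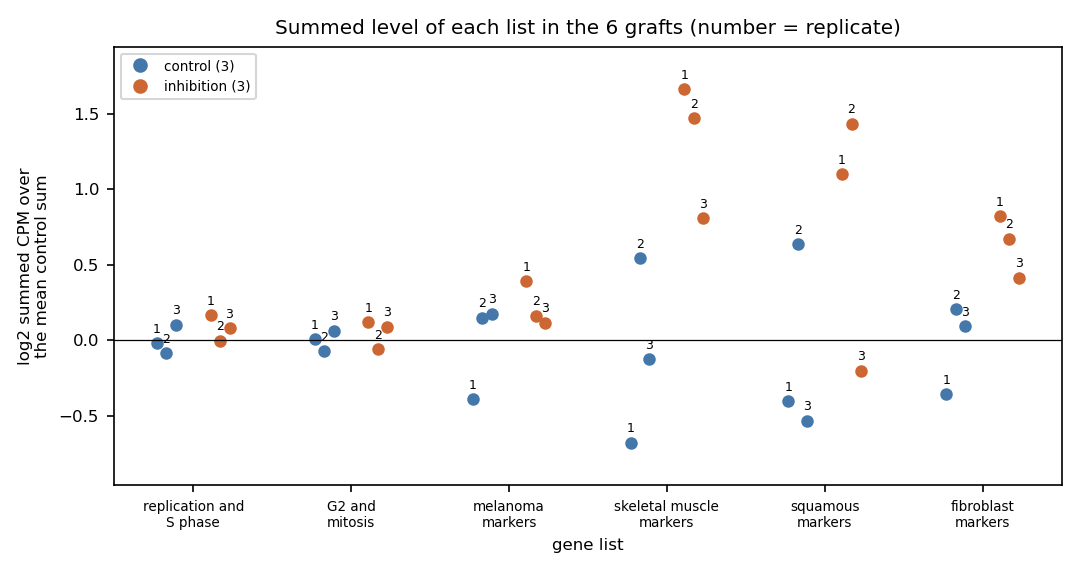
Summed CPM of 6 gene lists (x axis) in each graft, as log2 over the mean control sum (y axis), with blue points for controls, orange for inhibition and the replicate number above each point. The replication and mitosis sums stay close to 0 in all 6 grafts, while the muscle sums of the 3 inhibition grafts (1952 to 3529 CPM) lie above those of the controls (695 to 1624 CPM).

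Replication-dependent histone genes, made in S phase and mostly without a poly(A) tail, could hardly be read in these mRNA libraries. Of 70 genes, 9 passed the filter, 5 of them positive, and edgeR and DESeq2 called 0, both also with 0 by unadjusted p under 0.05. Of all genes, 8.36% were higher and 7.0% lower by that unadjusted p in edgeR, and 8.07% and 6.51% in DESeq2. The filter can keep a gene through 1 group alone, so the 9 do not stand for the 70. Hist1h1e, a linker histone, was at 0.905, 0.325 and 0.290 CPM in controls and at 1.40, 1.64 and 0.524 CPM under inhibition, which overlap (log2 fold change 1.22 ± 0.58, edgeR adjusted p = 0.349). Hist1h3g and Hist3h2a had log2 fold changes of 0.66 and 0.41 (edgeR adjusted p = 0.533 and 0.576). Histone genes are near-identical copies that can share reads, so single values are uncertain.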

How the data were processed

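The authors deposited 1 table of whole-number read counts, not normalized, with Ensembl gene IDs in rows and the 6 libraries in columns. The submitters' processing notes name build mm10 and HISAT2 2.0. The counting program, annotation release, filters and strand setting are not given in the sources used here. Columns named for nociceptive denervation were matched by group and number to the titles on nerve inhibition. Symbols were matched for 55227 of 55487 gene IDs, and coordinates and exon lengths came from GENCODE M21 on GRCm38.

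filterByExpr (at least 10 counts, at least 15 in total) kept 15666 genes, and TMM factors set the scale. Inhibition (3 libraries) was set against control (3) with edgeR 4.0.16 under R 4.3.3, using its robust quasi-likelihood test, with Benjamini-Hochberg adjustment over all genes tested and calls at an adjusted p under 0.05. The standard error is the absolute log2 fold change over the square root of F, and intervals (95%) use the moderated degrees of freedom. TPM was computed from counts and exon lengths, without TMM. The exon length is every base in any annotated exon of a gene, so TPM of different genes depends on the annotation. One count was worth 0.0477 to 0.0691 CPM. The fit was tested on simulated data. Alternatives used limma 3.58.1, DESeq2 1.42.0, other scalings and filters, the replicate number as a block, a muscle covariate and each library left out.

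The 38 genes and all lists were chosen with earlier results of these data known. In each role group the 3 genes with the smallest p, and Mcm2, Pcna, Rrm2, Ccne1 and E2f1, are given in full, as are up to 3 genes per related list. Since no label ties the samples to separate animals, the p-values cover the spread among these 6 samples, which may be technical. No library was a repeat of another: within groups, the chi-square of library pairs divided by its degrees of freedom was 7.65 to 17.9.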

Additional observations from a re-analysis of the deposited data

How the results depend on the processing

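No alternative called any of the 38 genes: 0 were higher and 0 lower in all 16 planned settings, and the smallest adjusted p in any was 0.172, for Rpa2 without control 2. The count over all genes varied, from 6 in edgeR to 1187 with no filter, 541 in DESeq2, 14 with the replicate block, 33 at an adjusted p under 0.1, and 0 in limma-voom (unadjusted p under 0.05 for 1366 higher and 1064 lower genes) and with the muscle covariate (212 and 323). Leaving out single libraries gave 0 to 217 calls, with 0 without control 3, inhibition 1 or inhibition 2 (at least 655 genes in each direction at an unadjusted p under 0.05), 11 without control 1, 24 without control 2 and 217 without inhibition 3. The median of the 38 stayed between 0.05 and 0.14, and the number positive between 25 and 33. At an unadjusted edgeR p under 0.05, 8 of the 38 were higher without control 3, where 1094 of 15981 genes tested were. Without control 1, control 2, inhibition 1 or inhibition 3 there were 0. In those fits 847 of 16233, 1664 of 16262, 770 of 16213 and 1544 of 15890 genes tested were higher.

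Among the 27 genes given in full, leaving aside Pcna at 0.00, those listed here changed sign, and signs of the other 11 genes are not listed. With the muscle covariate these were Cdc45 (-0.01), Rrm1 (0.09), Rrm2 (0.34) and Tk1 (0.09). Without control 1 they were Cdc45 (-0.05), Rrm2 (0.06) and Tk1 (0.05), and without control 3 Rrm2 (0.05) and Dut (0.02). Rrm2 was at 0.05 without inhibition 2, and Ccne1 at -0.06 without control 2 and -0.02 without inhibition 1. Over the 6 fits without 1 library, the range was -0.05 to 0.18 for Cdc45, -0.16 to 0.06 for Rrm2, -0.09 to 0.05 for Tk1, -0.12 to 0.02 for Dut and -0.06 to 0.16 for Ccne1. The cause was not tested. Whether replicate numbers pair the samples cannot be told, since deviations from a mean of 3 libraries are not independent. The deviations of same-numbered libraries correlated at -0.18, 0.33 and 0.09. The value for control 2 with inhibition 2 (0.33) was the highest of all pairs, and control 1 correlated best with inhibition 3 (0.30). Without the 8 genes that share at least 10% of their exon bases with another gene, an alternative chosen after seeing the data, the median was 0.10 and 21 of 30 were positive. Depth limited mainly Fen1, with 291 counts.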
